A study of Rattus norvegicus with 24 samples.

Results

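Star miRNAs are the strands whose names end in an asterisk in the older miRNA nomenclature, and they were taken here as every rat miRNA probed on the array with such a name. They numbered 240 of 677 miRNAs. A miRNA hairpin is cut by the RNases Drosha and Dicer into a short duplex of 2 strands. The guide strand is loaded into an Argonaute protein and directs the silencing of messenger RNAs, mostly through its seed, bases 2 to 8 from the 5′ end. The passenger, or star, strand is usually degraded, although for some hairpins it accumulates and is itself loaded. The asterisk was given to the strand thought to be the rarer one when the hairpin was first described, so the name is a convention and not a measurement in these cells.

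Small RNA was measured in peripheral blood mononuclear cells (PBMC, the lymphocytes and monocytes of blood) of female Wistar rats on 24 one-colour Agilent arrays, 2 for each of 12 groups, each array with the blood of a separate animal. Healthy animals (NOCIA, NORA in the labels) were sampled before therapy and at 1 hour and 34 days, and animals with collagen-induced arthritis (CIA, RA in the labels), immunised with bovine type II collagen in adjuvant, were sampled before therapy. The remaining 8 groups were arthritic animals at 1 hour or 34 days of 1 of 4 arms. These were mechanical stimulation with a twirled subcutaneous needle (MS, AP in the labels), methotrexate (MTX), saline placebo (PLA), and isoflurane in place of ether at blood sampling with no other therapy (ANE). The array holds a guide of the same name for 205 of the 240 stars, so these can be set beside their guide on the same array.

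Levels are given on the log2 scale of the total signal of a miRNA after scaling between arrays, and only where the scanner software stated that the miRNA was detected. The arrays lay on 3 slides of 8, and each group lay on 1 slide, so slide and group cannot be told apart in comparisons across slides. The summed signal of detected miRNAs ran from 137544 to 519917 per array. MS replicate 1 stood apart at both times, with sums of 371061 at 1 hour and 519917 at 34 days and the lowest scale factors (0.452 and 0.456). Markers of leukocytes fitted the labelled cells, with miR-142-3p at 13.2 to 13.9, the lymphocyte miRNA miR-150 at 9.55 to 13.5 and the myeloid miRNA miR-223 at 12.3 to 13.7. The muscle miRNAs miR-1 and miR-133a and the neuronal miR-124 and miR-9 were detected on no array. The erythroid miR-451 was also bright, and it ran from 11.1 to 15.2. The liver miR-122 was detected on 9 arrays, at 3.63 to 8.96, and miR-126, found in platelets and endothelium, on all 24 at 5.33 to 7.58, while its star miR-126* was detected on 2.

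The sequences below show the strands behind the results that follow, as RNA from RefSeq (build GRCr8), with the seed in capitals. The array files name no arm, and for these 6 hairpins the star is given as the current name for the arm that carried the asterisk, with its guide beneath it. They are miR-140, whose star was the brightest, the 4 hairpins whose star level or ratio passed a test between groups and for which both arms are listed (miR-20a, miR-652, let-7b and miR-211), and miR-144, whose star varied over the widest range among the stars detected on all arrays.
miR-140* (miR-140-3p, chr19:52375353-52375373, plus strand): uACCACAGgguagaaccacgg
miR-140 (miR-140-5p, chr19:52375314-52375335, plus strand): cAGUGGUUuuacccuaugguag
miR-20a* (miR-20a-3p, chr15:98588354-98588374, plus strand): aCUGCAUUacgagcacuuaca
miR-20a (miR-20a-5p, chr15:98588318-98588340, plus strand): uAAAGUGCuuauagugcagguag
miR-652* (miR-652-5p, chrX:111140088-111140110, plus strand): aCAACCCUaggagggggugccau
miR-652 (miR-652-3p, chrX:111140129-111140149, plus strand): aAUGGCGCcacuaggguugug
let-7b* (let-7b-3p, chr7:118684098-118684119, plus strand): cUAUACAAccuacugccuuccc
let-7b (let-7b-5p, chr7:118684044-118684065, plus strand): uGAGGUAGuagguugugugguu
miR-211* (miR-211-3p, chr1:127189389-127189408, plus strand): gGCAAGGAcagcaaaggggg
miR-211 (miR-211-5p, chr1:127189353-127189374, plus strand): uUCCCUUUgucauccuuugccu
miR-144* (miR-144-5p, chr10:63459409-63459431, plus strand): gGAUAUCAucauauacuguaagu
miR-144 (miR-144-3p, chr10:63459446-63459465, plus strand): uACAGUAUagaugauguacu

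A further 5 detected stars carry the number of their hairpin copy, and RefSeq lists them under that number, which settles the strand. Their guide is made by several hairpins and is probed without the number. They are shown because the star, unlike the guide, reads 1 hairpin.
miR-24-2* (miR-24-2-5p, chr19:40859517-40859538, minus strand): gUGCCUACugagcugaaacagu
miR-7a-1* (miR-7a-1-3p, chr17:6278751-6278772, plus strand): aCAACAAAucacagucugccau
miR-181a-1* (miR-181a-1-3p, chr13:52037121-52037142, plus strand): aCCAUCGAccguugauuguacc
miR-30c-1* (miR-30c-1-3p, chr5:139634467-139634488, minus strand): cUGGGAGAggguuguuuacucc
miR-19b-1* (miR-19b-1-5p, chr15:98588448-98588469, plus strand): aGUUUUGCagguuugcauccag
No seed was shared among these 11 stars. The seed of let-7b* is also that of 5 other mature strands in RefSeq, among them the 3p arms of let-7a-1, let-7f-1 and miR-98. The stars let-7a-1*, let-7f-1* and miR-98* are on the array and were detected on no array, whereas let-7b* was detected on 11. Likewise miR-24-1*, with the seed of miR-24-2*, was detected on no array, while miR-24-2* was detected on all 24. The stars of miR-20a and of miR-19b-1, members of the miR-17-92 cluster, lie 73 bases apart.

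Most star strands were not detected in these cells. Of the 240 stars, 53 (22.1%) were detected on at least 1 array, 42 (17.5%) on at least 3 and 10 (4.17%) on all 24, and 187 (77.9%) were detected on none. Of all 677 miRNAs, stars included, 36.2% were detected on at least 1 array, 31.0% on at least 3, 19.5% on all 24 and 63.8% on none. Detection on at least 3 arrays held for 32.5% of the -5p or -3p names and 40.6% of the other names. Among the 117 miRNAs with -5p or -3p names 23 (19.7%) were detected on all 24 arrays, and among the 320 other names 99 (30.9%). The 10 stars found everywhere were miR-140*, miR-144*, miR-30e*, miR-652*, miR-362*, miR-7a-1*, miR-423*, miR-191*, miR-24-2* and miR-20a*. All stars together held 0.612% to 0.945% of the summed signal of an array, and miR-140* alone held a median of 42.6% of the star signal.

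The detected stars were then counted by the detection of their guide. Of 76 stars whose guide was detected on all arrays, 26 (34.2%) were detected on at least 3 arrays, against 4 of 96 (4.17%) whose guide was detected on no array. Those 4 were miR-1*, on 19 arrays, miR-483*, on 13, miR-296*, on 7, and miR-202*, on 4. miR-1 is a muscle miRNA and the miR-483 hairpin lies in an intron of Igf2. The star probes of these 4 hairpins gave a detected signal where the guide probes gave none. A guide name was absent from the array for 35 stars, of which 7 were detected on at least 3 arrays. These were miR-24-2*, miR-7a-1*, miR-181a-1*, miR-30c-1*, miR-19b-1*, miR-466b-1* and miR-466b-2*, all from numbered hairpin copies.

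**Figure D1:**
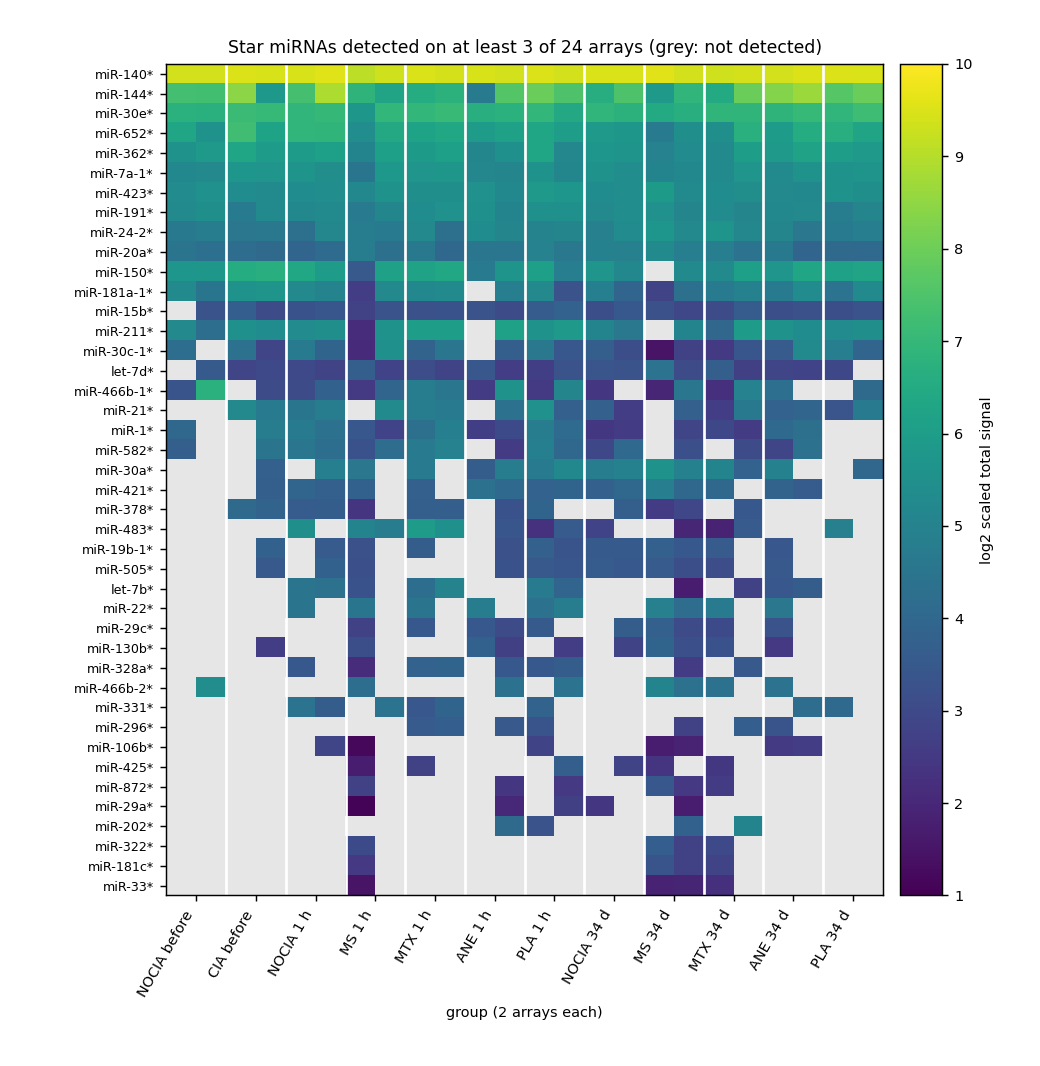
Log2 scaled total signal (colour) of the 42 star miRNAs detected on at least 3 arrays (rows) on the 24 arrays (columns, 2 per group), with undetected values in grey. The 10 stars at the top were detected on all 24 arrays, and 3 at the bottom on the same 4 arrays.

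Arrays differed in how many stars they detected, from 17 to 42 with a median of 27. The lowest counts were on the 2 arrays of NOCIA before therapy, 17 on each, which also had summed signals of 137544 and 138064. The highest count was on MS at 1 hour replicate 1 (42), followed by MS at 34 days replicate 2 (40). miR-181c*, miR-322* and miR-33* were detected on the same 4 arrays, namely MS at 1 hour replicate 1, both arrays of MS at 34 days, and MTX at 34 days replicate 1. These were the 4 arrays with the highest summed signal, 303079 to 519917, and the part of the summed signal in this detection pattern was not tested. PLA at 1 hour detected 35 and 37 stars with sums of 207196 and 224351, so a high count was not restricted to the brightest arrays.

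The brightest star, miR-140*, varied least. miR-140 is known for its role in cartilage, and its star ran from 9.10 to 9.59 with a median of 9.45. Its group means lay between 9.23 ± 0.18 (SD, n = 2) in MS at 1 hour and 9.51 ± 0.09 in NOCIA at 1 hour. Its adjusted p was 0.617 for the ratio to the guide and 0.715 for the level in limma's F-test over the 12 groups. miR-423* (5.19 to 5.91) and miR-191* (4.70 to 5.56) had the next narrowest ranges of the 10.

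miR-144* varied most among the 10, from 4.69 to 8.88. The miR-144 hairpin is expressed with miR-451 in erythroid cells. The lowest value of miR-144* was in ANE at 1 hour replicate 1 (4.69), whose other replicate was at 7.59. The highest was in NOCIA at 1 hour replicate 2 (8.88), whose other replicate was at 7.36. CIA before therapy held 8.44 and 5.78 in its 2 animals, so replicates of a group spanned much of the range, and limma's F-test over groups gave an adjusted p of 0.549. The array with the lowest miR-144* also had the lowest miR-451 (11.1), and the array with the highest miR-144* the highest miR-451 (15.2).

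The remaining 6 of these stars had ranges between 1.31 and 2.52. miR-652* ran from 4.72 to 7.24 and miR-30e* from 5.76 to 7.21. The group means of miR-30e* lay between 6.36 ± 0.85 in MS at 1 hour and 7.08 ± 0.08 in CIA before therapy. For miR-362* they lay between 5.16 ± 0.25 in MS at 34 days and 6.13 ± 0.27 in CIA before therapy, and for miR-7a-1* between 5.12 ± 0.10 in MS at 34 days and 5.73 ± 0.06 in MTX at 1 hour. For miR-24-2* the lowest group was CIA before therapy (4.59 ± 0.02) and the highest MS at 34 days (5.49 ± 0.34). For miR-20a* they were NOCIA at 1 hour (4.04 ± 0.15) and MS at 34 days (5.06 ± 0.29). The extremes of miR-30e*, miR-362*, miR-7a-1* and miR-24-2* did not make any of them pass the F-test, with adjusted p of 0.569, 0.546, 0.622 and 0.412. miR-20a* and miR-652* did not pass the F-test either, with adjusted p of 0.315 and 0.385.

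Over the 12 groups, limma's moderated F-test with Benjamini-Hochberg adjustment over the 210 miRNAs detected on at least 3 arrays called 5 miRNAs (2.38%), of which 1 was a star, let-7b* (adjusted p = 0.000201). The star of let-7b, a member of the let-7 family, was detected on both arrays of NOCIA at 1 hour (4.47 and 4.38), MTX at 1 hour (4.24 and 5.02), PLA at 1 hour (4.70 and 3.95) and ANE at 34 days (3.43 and 3.66). It was detected on 1 array of MS at 1 hour (3.27), MS at 34 days (1.72) and MTX at 34 days (2.79). It was detected on no array of NOCIA or CIA before therapy, ANE at 1 hour, NOCIA at 34 days or PLA at 34 days. Thus 7 of its 11 detected values came from the 8 arrays of slide 3, which holds 4 of the 5 groups sampled at 1 hour, and the fifth, ANE at 1 hour on slide 1, had none. In the fit both arrays of CIA before therapy, ANE at 1 hour, and NOCIA, MS and PLA at 34 days stood at the floor of 2.53. These groups add an SD of 0 to the residual spread. The p-values of let-7b*, here and below, therefore do not measure the spread between animals alone.

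Against the untreated group before therapy, let-7b* was at least 3.74-fold higher in MTX at 1 hour (adjusted p = 0.000288, limma), at least 3.03-fold in PLA at 1 hour (adjusted p = 0.00161) and at least 2.45-fold in healthy animals at 1 hour (adjusted p = 0.000689). The groups before therapy had no detected value, so these folds are set against the lowest detected signal of their arrays. They are lower bounds only if let-7b* lay below that signal there, which was not tested. All miRNAs called in these comparisons made 1.43%, 0.952% and 2.38% of the 210 tested. The guide let-7b did not pass in any of them, with log2 differences of -0.22 ± 0.15 (SE), -0.25 ± 0.15 and 0.19 ± 0.15. let-7b* also fell in MS against PLA at 1 hour, within slide 3, by 1.42 on the log2 scale (SE 0.28, adjusted p = 0.0162, limma), with 1 array of MS and 2 of PLA detected. In that comparison 0.952% of miRNAs were called. Without MS at 1 hour replicate 2, which had no detected value, the difference was -1.05 (adjusted p = 0.0734, limma). The let-7b* differences were not seen in other readings of the same spots. With the mean processed spot signal MTX against CIA was 0.57 (adjusted p = 0.994, limma), and in the authors' log2 table it was 0.30 (adjusted p = 0.902, limma).

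**Figure D2:**
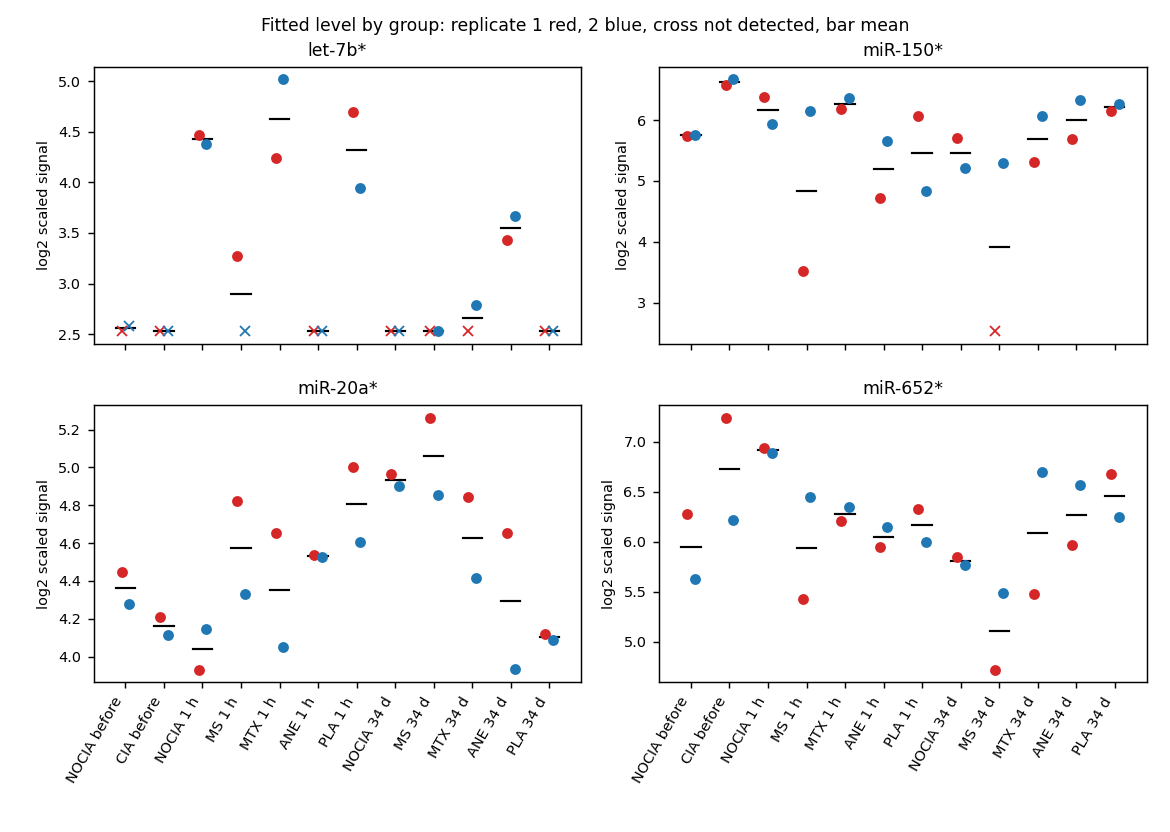
Log2 scaled signal of let-7b*, miR-150*, miR-20a* and miR-652* in the 12 groups (replicate 1 red, replicate 2 blue, black bar the mean of 2, crosses undetected values at or near the floor of 2.53). let-7b* was between 3.95 and 5.02 on both arrays of NOCIA, MTX and PLA at 1 hour, and MS at 34 days held the lowest mean of miR-652* and the highest of miR-20a*.

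The other star calls came from MS at 34 days against CIA before therapy, a comparison across slides in which 40 of 210 miRNAs (19.0%) were called and 3 of 42 stars. miR-20a*, from the miR-17-92 cluster, was at 5.26 and 4.86 in MS and at 4.21 and 4.12 in CIA, and it rose by 0.90 (SE 0.27, adjusted p = 0.0405, limma). miR-652* was at 4.72 and 5.49 in MS and at 7.24 and 6.22 in CIA, and it fell by 1.63 (SE 0.45, adjusted p = 0.0383, limma). miR-150*, whose guide is abundant in lymphocytes, was undetected in MS replicate 1, at 5.30 in replicate 2, and at 6.58 and 6.67 in CIA, and it fell by 2.71 (SE 0.82, adjusted p = 0.0406, limma). The size of this fall depends on the floor of 2.53 at which the undetected array entered the fit. The 3 lymphocyte markers were lower in the same MS arrays, with miR-150 at 9.55 and 12.43 against 13.38 and 13.47 in CIA, miR-342-3p at 9.49 and 10.18 against 11.05 and 11.21, and miR-181a at 9.16 and 9.59 against 10.02 and 10.33. The myeloid marker miR-223 was higher, at 13.57 and 13.08 against 12.26 and 12.60. The part of cell composition in the star differences was not tested, and in such bulk samples fewer cells of a type and less RNA per cell cannot be told apart. All 3 star calls were lost without MS at 34 days replicate 1, the array with the highest summed signal, and also without either array of CIA before therapy (adjusted p 0.115 to 0.144, limma). Without the MS array their adjusted p was 0.464 for miR-20a* and miR-652* and 0.477 for miR-150*, with differences of 0.69, -1.24 and -1.33. At an unadjusted p under 0.05 there were 13 of 42 stars in this comparison, called stars included, and 102 of all 210 miRNAs. On the 10 stars detected on all arrays the median difference was -0.25, and on the 132 miRNAs detected on all arrays it was 0.26.

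The guides of these 3 stars behaved differently from one another. The guide miR-20a rose with its star, by 0.82 (SE 0.23, adjusted p = 0.0383, limma). The guide miR-150 was 2.43 lower (log2 difference -2.43, SE 0.89), which missed the threshold (adjusted p = 0.0549, limma). The guide miR-652 had a difference of 0.41 (SE 0.22, adjusted p = 0.158, limma), opposite in sign to that of its star.

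In the other comparisons no star was called by limma. Of all 210 miRNAs, 0.952% were called in CIA against NOCIA before therapy, 0.952% in NOCIA at 34 days against before therapy, and 0.476% in ANE at 1 hour against CIA before therapy. None (0%) was called in MS at 1 hour, or in MTX, ANE and PLA at 34 days, each against CIA before therapy. The same was true of MTX against PLA at both times and of MS against PLA and against MTX at 34 days. At an unadjusted p under 0.05 the stars in these comparisons numbered from 0 (MTX against PLA at 34 days) to 8 (MS against PLA at 34 days), with 3 in CIA against NOCIA before therapy. Over all 210 miRNAs the counts in these 3 comparisons were 5, 84 and 16. The lowest adjusted p of a star in MS against PLA at 34 days, a comparison within slide 1, was 0.0622, shared by miR-20a* (0.96), miR-652* (-1.35), miR-130b* (1.01) and miR-421* (1.73). miR-130b* and miR-421* were detected on neither PLA array, so their differences are set against undetected values.

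The star-to-guide ratio is the log2 signal of the star minus that of the guide on the same array, and it does not depend on scaling between arrays. It compares different probes, so its size is a ratio of signals and not of copies, and a value above 0 says only that the star's signal was brighter. It could be formed where both strands were detected, for 31 hairpins, and on all 24 arrays for 6. The median ratio ran from -10.53 for miR-29a*, a signal 1477 times below that of its guide, to 3.18 for miR-423*. Both ends moved with the reading of the spots. With the mean processed spot signal and in the authors' log2 table miR-29a* was at -9.43 and -8.79, and miR-21* had the lowest median (-10.44 and -10.40), while miR-423* was at 2.94 and 1.28.

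**Figure D3:**
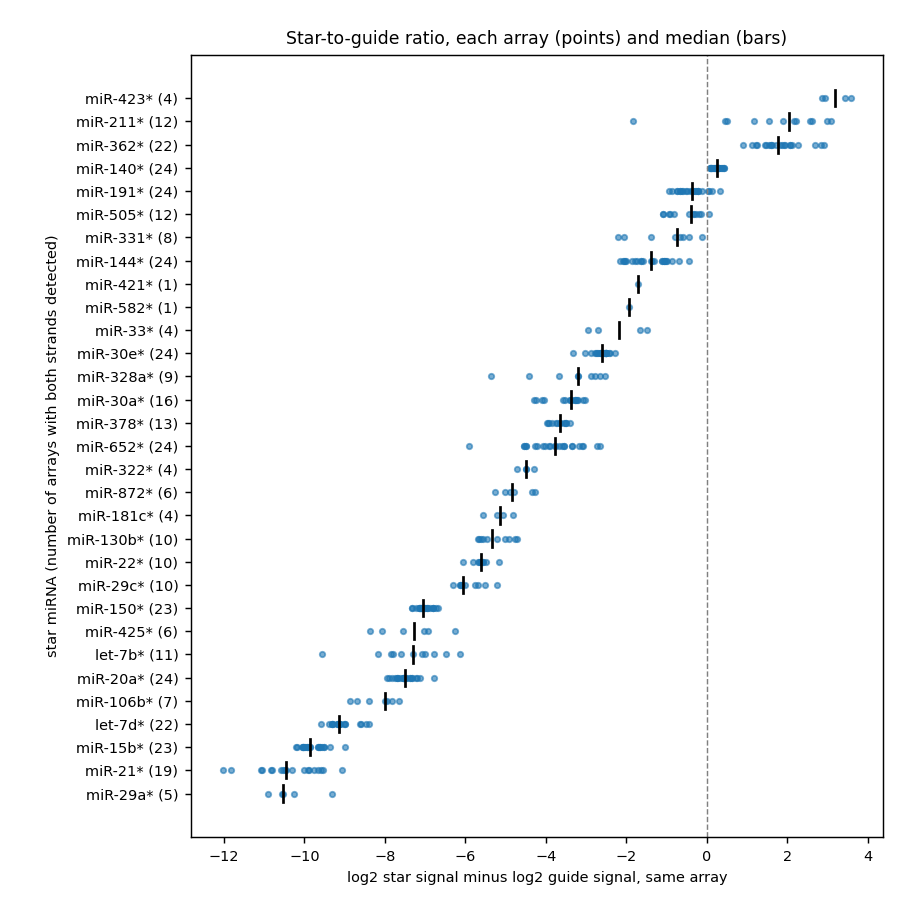
Star-to-guide ratio (log2, horizontal axis) of 31 hairpins, each point an array with both strands detected (number in brackets) and each bar the median. The medians run from -10.53 (miR-29a*) to 3.18 (miR-423*), with 4 above 0 and 1 point of miR-211* at -1.83.

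The 3 lowest median ratios belonged to hairpins with abundant guides. A ratio needs a detected star, so values this low can arise only beside a bright guide. miR-29a*, from a family known to target collagen messenger RNAs, was detected on 5 arrays, with ratios from -10.91 to -9.32. miR-21*, of a hairpin induced in inflammation, was detected on 19 arrays with a median ratio of -10.47, and its guide was at a median level of 14.7. miR-15b* had a median ratio of -9.87 on 23 arrays, within -10.20 to -9.00.

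The star was the brighter strand by the median in 4 hairpins with the total signal, and which hairpins these were depended on the reading of the spots. In the authors' log2 table miR-505* was above its guide on 11 of 12 arrays (median 0.17), against 1 of 12 here (median -0.39), and the single ratio of miR-421* was 0.31 there and -1.72 here. For miR-423 the guide was detected on 4 arrays and the star on all 24, and the ratios were 3.58 in MS at 1 hour replicate 1, 2.85 in PLA at 1 hour replicate 2, and 2.94 and 3.42 in MS at 34 days. miR-362* had a median ratio of 1.77 over 22 arrays and was the brighter strand on each of them. Its group means lay between 1.07 ± 0.24 in MS at 34 days and 2.21 ± 0.87 in NOCIA at 1 hour. For miR-140 the ratio lay between 0.08 and 0.42, so the star was brighter on 24 of 24 arrays. The authors' log2 table put the star of miR-140 above the guide on 12 of the 24, with a median of -0.01, while with the mean processed spot signal it was above on all 24. The order of the miR-140 strands was therefore not the same in every reading, and which processing step changed it was not tested. That of miR-362 and miR-423 did not change in either reading, in which their stars were above on all 22 and all 4 arrays.

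The fourth was miR-211*, of a hairpin in an intron of Trpm1 that is known from melanocytes. Both strands were detected on 12 arrays, with a median ratio of 2.03 and the widest range of all pairs (4.91). The ratio was -1.83 on MS at 1 hour replicate 1 and between 0.45 and 3.08 on the other 11. limma's threshold was passed for MS at 1 hour against CIA before therapy (log2 difference -4.44, SE 0.71, adjusted p = 0.0118), with 1 array on each side, and against PLA at 1 hour (-4.31, SE 0.61, adjusted p = 0.0103), with 1 array against 2 (3.08 and 1.89). The fit assumes that a lone array varies as the other groups do. Both values describe MS at 1 hour replicate 1, and no difference between groups can be read from them, since each array entered only where both strands were detected and the guide was not detected on the other MS array. The star level was 2.13 on replicate 1 and 5.58 on replicate 2, and for the level itself the 2 comparisons gave adjusted p of 0.601 and 0.696. The calls made up 6.25% of 16 and 3.85% of 26 ratios tested.

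In the 6 hairpins with both strands on all 24 arrays the ratio did not differ among groups by the F-test (0 of 6 called, or 0%). The smallest adjusted p was 0.212 (limma), for both miR-20a and miR-191. Before adjustment only miR-20a fell under 0.05, at 0.0455. A ratio of these hairpins did pass in a single comparison. The miR-652 ratio was -5.91 and -4.49 in MS at 34 days and -2.66 and -3.67 in CIA before therapy, and it fell by 2.04 (SE 0.57, adjusted p = 0.0385, limma). It was the only call among the 16 ratios tested there (6.25%). Without MS at 34 days replicate 1 the difference was -1.33 (adjusted p = 0.503, limma). In the other 13 comparisons no ratio was called (0% of 9 to 25 tested), and MS against PLA at 34 days had the lowest adjusted p among them (0.0632).

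How far a star and its guide moved together differed between hairpins. Over the 23 arrays with both strands of miR-150, the star ranged over 3.15 and the guide over 3.21, but their ratio over 0.64, from -7.33 to -6.69. On MS at 1 hour replicate 1, for example, miR-150* fell to 3.52 and miR-150 to 10.3, with a ratio of -6.74 close to those of CIA before therapy (-6.79 and -6.80). The strands of miR-144 moved together less closely, with ranges of 4.18 for the star, 3.76 for the guide and 1.71 for the ratio. In miR-20a the ratio was -7.53 ± 0.03 in MS at 34 days and -7.60 ± 0.08 in CIA before therapy, although both strands were higher in MS. The opposite held for miR-652, in which the ratio had a wider range (3.25) than the star (2.52) or the guide (1.19).

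**Figure D4:**
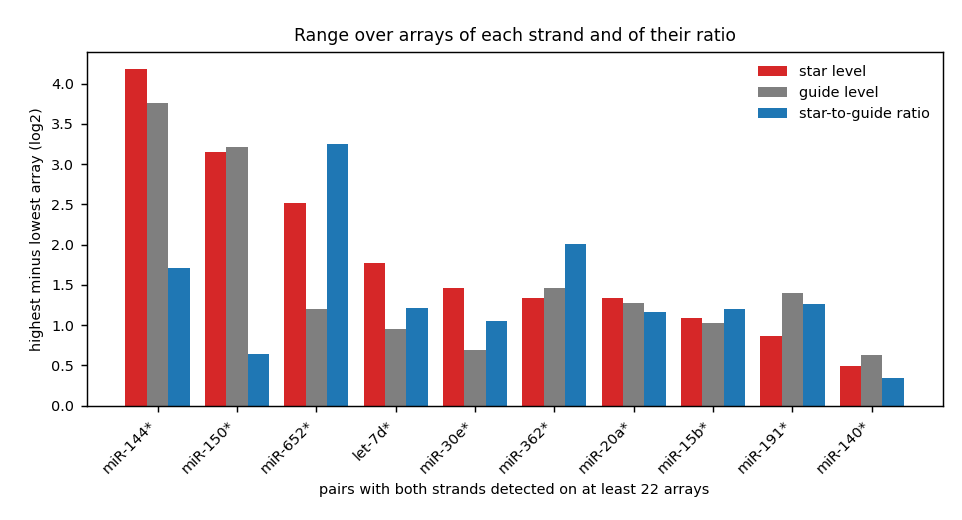
Range over arrays (highest minus lowest, log2) of the star level, the guide level and their ratio for the 10 hairpins with both strands detected on at least 22 arrays. For miR-150 the ratio ranged over 0.64 while the strands ranged over 3.15 and 3.21, and for miR-652 the ratio (3.25) ranged more widely than either strand.

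For the 5 numbered copies whose strand is settled, the star was set beside the guide shared by all copies of the hairpin. The median ratio was -3.59 for miR-7a-1* and -6.35 for miR-24-2*, both over 24 arrays, -4.85 for miR-181a-1* over 23, -6.00 for miR-30c-1* over 22 and -8.70 for miR-19b-1* over 13. The values of miR-30c-1* spread widely, from -8.13 to -4.19, and those of miR-24-2* little, from -6.72 to -5.82. Other copies of the hairpin can add to the guide, and their part in these ratios was not tested.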

How the data were processed

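Per the labels, PBMC were separated on a gradient and their total RNA carried a Cy3 label, and per the file headers Agilent Feature Extraction 10.7.3.1 quantified the scans (the submitters' processing notes also name RMA, with no role). The deposited intensity values are background-corrected total signals per miRNA (20 spots each, from 1 to 4 probes) with a detection call. The authors also deposited a log2 table of the same arrays. The study's methods name AgiMicroRna for summarising the signals, and the normalisation step behind the table is not stated. Signals were scaled to an equal 75th percentile over the 132 miRNAs detected on all 24 arrays. The common target, the geometric mean of the percentiles, shifts all levels by 1 constant and changes no difference. It replaced the arithmetic mean after the data were seen, to match an earlier analysis of these files. Values below 5.76 were set to that floor and log2 was taken. All 12046 undetected values equalled their listed error and carry no level, but entered the level fits at that value or at the floor. Ratios used detected values without the floor.

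limma 3.58.1 in R 4.3.3 fitted 12 group means to 24 arrays (two-sided tests, 12 residual degrees of freedom, 16 comparisons). Benjamini-Hochberg adjustment ran over the 210 miRNAs detected on at least 3 arrays, and for ratios over those that could be formed, and an adjusted p under 0.05 is a call. For a group without detection a lower bound was computed against the lowest detected signal of each array. It takes the undetected miRNA to lie below that signal. The fitting steps were tried on simulated normal values with no floor and no undetected values. That trial does not cover calls that rest on such values or on a lone array. Stars detected on all arrays, called, brighter than their guide, or with one of the 3 extreme median ratios were named. The star miRNAs, the rules and the lists were chosen with earlier results of these data known. Replicates are separate animals, and 2 per group limit the precision. One label line of NOCIA at 34 days says 1 hour, and 34 days was used. Alternatives were other scalings, signals, floors, filters and fits.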

Additional observations from a re-analysis of the deposited data

Results flagged for a closer look

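A difference between treatment arms at the same time passed its test for let-7b* in MS against PLA at 1 hour (log2 difference -1.42), where 1 of 2 MS arrays and both PLA arrays detected it. Before scaling the detected MS signal was 21.3, between those of PLA (25.5 and 17.3), and its array had the lowest scale factor (0.452). The let-7b* difference was not seen with normexp or in the authors' table. The ratio of miR-211* to its guide passed the threshold in the same comparison (log2 difference -4.31). That value rests on 1 MS array, replicate 1, since the guide was undetected on the other, so it describes that array and no difference between the arms can be read from it. Both are listed because the test set the arms against each other and not against the animals before therapy.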

How the results depend on the processing

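With 2 arrays per group the number of star calls moved with most choices, and the causes were not tested beyond what each choice changes by construction. The call counts below are of stars alone, without the share of all miRNAs called under the same choice. They show how far the calls depend on processing, and nothing particular to stars can be read from them. In the main fit MS at 34 days against CIA called 3 of 42 stars beside 40 of all 210 miRNAs. The 7 level calls over 16 comparisons became 39 without scaling, 0 with the percentile over all miRNAs and 2 with quantile normalisation. They became 17 without the detection filter and 11 with a floor 2 times higher. With undetected values at the floor, an alternative chosen after seeing the data, they became 12. The 17, like the counts by comparison without the filter below, cover only the 42 stars detected on at least 3 arrays. Without the filter all stars together gave 764 calls, 747 of them for stars detected on fewer than 3 arrays. The star called by the F-test (1) became 0 with the percentile over all miRNAs, the mean spot signal, normexp on the median spot signal, the authors' table or miRNAs detected on all arrays only, 5 without the filter and 2 with the higher floor. The 42 stars detected on at least 3 arrays became 26 on at least 12 and 10 on all 24. The 3 ratio calls became 12 with the mean spot signal, 12 at the study's threshold (more than a 2-fold change at p under 0.05 before adjustment) and 0 with only the arrays compared in the 6 complete hairpins, chosen after seeing the data. The ratio F-test's 0 became 1 with undetected strands at the floor.

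In MS at 34 days against CIA the 3 star calls became 19 without scaling, 8 with the mean spot signal, 10 with normexp or the authors' table, 8 with undetected values at the floor, 5 with the higher floor or the replicate number as a block, and 0 with the percentile over all miRNAs, quantile normalisation, no filter or only the arrays compared. In MS against PLA at 34 days the 0 became 19 without scaling, 7 without the filter, 2 with miRNAs detected on all arrays only and 1 at the study's threshold. In MTX at 1 hour against CIA the 1 became 3 with the higher floor, and in NOCIA at 1 hour 3 without the filter and 2 with only the arrays compared. For MTX, PLA and NOCIA at 1 hour against before therapy the call became 0 with the percentile over all miRNAs, the mean spot signal, normexp, the authors' table, miRNAs detected on all arrays only and the study's threshold. It was also 0 without scaling (MTX, NOCIA), with quantile normalisation (PLA), with the higher floor (PLA, NOCIA) and with only the arrays compared (MTX, PLA). In MS against PLA at 1 hour the 1 became 2 at the study's threshold and 0 under every other level alternative that kept all arrays of the comparison, except the replicate block and undetected values at the floor. Its let-7b* difference turned to 0.0079 with normexp and 0.059 in the authors' table.

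The other comparisons had 0 star calls. With the higher floor 1 was called in CIA against NOCIA, in ANE at 1 hour and in MTX against PLA at 1 hour. At the study's threshold 1 was called in MS at 1 hour and 1 in MTX against PLA at 1 hour. Without the filter 3 were called in CIA against NOCIA and 2 in NOCIA at 34 days. With only the arrays compared 2 and 1 were called in the same comparisons, and with only the arrays of the slide 1 in CIA against NOCIA and 1 in ANE at 34 days.

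Leaving out each array in turn gave 4 to 29 level calls, 1 to 2 by the F-test, 1 to 5 ratio calls and 0 to 1 by the ratio F-test. By comparison the star calls ranged from 0 to 12 in MS at 34 days against CIA, 0 to 9 against PLA and 0 to 4 against MTX, 0 to 4 in MS at 1 hour, 1 to 3 in MTX and 1 to 2 in PLA at 1 hour, and 0 to 1 in MTX against PLA at 1 hour, and the count stayed the same in the others. In MS against PLA at 1 hour the star called was miR-30e* without MS replicate 2 (-0.94, adjusted p 0.0364, limma) and miR-425* without PLA replicate 1 (-1.20, adjusted p 0.000458), in place of let-7b*. The highest total, 29, came without MS at 34 days replicate 2. The 3 MS calls at 34 days were lost without MS replicate 1, either array of CIA before therapy, and either array of NOCIA before therapy or at 34 days (adjusted p 0.0511 to 0.0552 for the NOCIA arrays). The miR-652 ratio was lost without MS at 34 days replicate 1 or CIA before therapy replicate 1, and missed the threshold narrowly (adjusted p 0.0507 to 0.0536) without either array of NOCIA, MTX or ANE at 1 hour or NOCIA at 34 days. The let-7b* difference between MS and PLA was lost without MS at 1 hour replicate 2 or PLA at 1 hour replicate 1 (-1.05 in both, adjusted p 0.0734 and 0.161).

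Replicate numbers did not pair the samples. Over 66 pairs of groups the deviations of replicate 1 correlated with a median of -0.03, 26 of them above 0.1. Single pairs of groups ran from -0.77 to 0.84, so some pairs of groups did correlate strongly. The replicate block gave 9 level calls and 4 ratio calls.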
